A study of Rattus norvegicus with 8 samples.

Results

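The Nduf genes encode respiratory complex I, the NADH dehydrogenase of the inner mitochondrial membrane, together with factors that help to assemble it. They were taken as every probe set of the Rat Gene 1.1 ST array annotated to exactly 1 symbol beginning with Nduf, with the brightest probe set kept per gene. This gave 47 genes of 17245 genes on the array: 6 nuclear-encoded core subunits, 26 accessory subunits, 7 assembly factors (Ndufaf), 7 copies or pseudogenes, and Ndufa4, a subunit of complex IV that kept its old name. The comparison was between whole kidneys of 4-week-old rats, 4 HSRA-S and 4 HSRA-C. HSRA-S rats were born with a single kidney, and HSRA-C rats, the study's control, have 2. Both groups carry the same strain label, HSRA, a rat model of unilateral renal agenesis that derives from heterogeneous stock, and the labels name no treatment. Each of the 8 samples is labelled a biological replicate and had its own array; sex and litter were not stated.

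Complex I takes electrons from NADH, passes them along a chain of iron-sulfur clusters to ubiquinone and pumps protons across the inner membrane. Its core subunits carry the catalysis and are split between the nuclear and the mitochondrial genome. Accessory subunits surround the core and stabilise it, and assembly factors act while the enzyme is built but are not part of the finished complex. In the kidney the proximal tubule and the thick ascending limb are rich in mitochondria, since the sodium pump that drives reabsorption there uses much ATP. The inner medulla holds fewer mitochondria and relies more on glycolysis.

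Promoter sequences bear on genes that are transcribed towards 1 complex from many chromosomes. The RefSeq promoter table of assembly GRCr8, which runs from 250 bases before to 50 bases after a start, held an entry for 36 of the 39 core, accessory and assembly genes. Only the first entry of each gene was searched, here and for the background, and positions are relative to its start. Any other start of a gene was not covered. Of 33469 entries compared with the gene annotation, 19339 had the same start. The 4 motifs searched, of factors known from promoters of respiratory genes, were looked for on both strands, and a match could overlap another. The first was GCGCANGCG, bound by NRF1. The others were CCGGAAG, bound by ETS factors such as GABP, AAGATGGCG, bound by YY1, and TCAAGGTCA, bound by oestrogen-related receptors. NRF1 letters were in 10 of 36 complex I promoters (27.8%), against 6.26% of 27457 promoters of the same length and 8.05% of the protein-coding ones. ETS letters were in 7 (19.4%, against 9.22% of all promoters and 11.2% of the protein-coding ones). YY1 letters were in 6 (16.7%, against 1.93% of all promoters and 2.29% of the protein-coding ones), each time after the start. ERR letters were in 0 of 36, against 0.412% of all promoters and 0.35% of the protein-coding ones. Of the 10 promoters with NRF1 letters, 8 belonged to accessory genes, 2 to assembly genes and 0 to the 6 core genes.

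Of these promoters, 9 hold the NRF1 letters before the start, and they are shown because they are the most frequent motif of the gene family. Capitals mark the match, on either strand and with overlapping matches merged, and sequences run 5′ to 3′ on the strand of the gene, and coordinates are those of GRCr8.
Ndufa11 (chr9:1637501-1637541, plus strand): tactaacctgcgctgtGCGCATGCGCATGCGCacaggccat
Ndufa12 (chr7:30658189-30658229, plus strand): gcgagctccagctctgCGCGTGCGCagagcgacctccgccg
Ndufa5 (chr4:53971243-53971283, minus strand): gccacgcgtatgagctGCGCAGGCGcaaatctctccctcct
Ndufa6 (chr7:115750318-115750354, minus strand): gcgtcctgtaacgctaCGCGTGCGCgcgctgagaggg
Ndufaf4 (chr5:43401621-43401661, plus strand): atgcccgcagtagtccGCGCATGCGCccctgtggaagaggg
Ndufaf5 (chr3:147961581-147961611, plus strand): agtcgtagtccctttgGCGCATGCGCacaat
Ndufb4 (chr11:76569051-76569091, plus strand): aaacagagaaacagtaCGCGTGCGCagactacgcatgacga
Ndufs5 (chr5:141264507-141264547, minus strand): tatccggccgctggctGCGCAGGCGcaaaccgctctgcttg
Ndufv3 (chr20:9613731-9613771, plus strand): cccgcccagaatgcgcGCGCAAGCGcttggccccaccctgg

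The 4 windows of 200 bases just before the start follow. Ndufa1, Ndufa2 and Ndufab1 are the complex I genes of smallest p in the comparison below, and Ndufs8 is the one with the lowest difference. Capitals mark ETS letters, here on the opposite strand. The Ndufab1 window holds none of the 4 motifs.
Ndufa1 (chrX:121293556-121293755, minus strand): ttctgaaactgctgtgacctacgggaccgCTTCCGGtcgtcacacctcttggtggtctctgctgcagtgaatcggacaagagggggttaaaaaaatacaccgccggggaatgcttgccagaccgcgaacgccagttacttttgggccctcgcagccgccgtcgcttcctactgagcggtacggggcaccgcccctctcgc
Ndufa2 (chr18:28631885-28632084, minus strand): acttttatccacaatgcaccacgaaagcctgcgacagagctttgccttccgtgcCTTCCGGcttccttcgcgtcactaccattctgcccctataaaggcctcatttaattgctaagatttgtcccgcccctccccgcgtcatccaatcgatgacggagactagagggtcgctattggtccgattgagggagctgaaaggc
Ndufab1 (chr1:186089337-186089536, minus strand): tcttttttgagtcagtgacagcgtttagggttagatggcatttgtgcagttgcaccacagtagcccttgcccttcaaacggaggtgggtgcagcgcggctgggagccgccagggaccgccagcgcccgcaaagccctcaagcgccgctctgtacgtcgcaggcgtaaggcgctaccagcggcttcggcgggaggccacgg
Ndufs8 (chr1:210573699-210573898, minus strand): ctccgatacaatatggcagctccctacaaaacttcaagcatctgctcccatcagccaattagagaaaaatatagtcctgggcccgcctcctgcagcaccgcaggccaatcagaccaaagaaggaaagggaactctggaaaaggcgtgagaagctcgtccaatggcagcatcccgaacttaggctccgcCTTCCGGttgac

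Values are log2 of the deposited intensity and differences are HSRA-S minus HSRA-C, on the log2 scale. Of the 47 genes, 44 passed the filter that removed the dimmest 20% of genes. The others were Ndufb4, with a mean level of 2.21 in HSRA-S and 2.17 in HSRA-C, Ndufb4l1 (3.26 and 3.29) and Ndufb4l3 (3.12 and 2.99). Brighter probe sets shared by these symbols were outside the rule: the one annotated to Ndufb4 and Ndufb4l3 had means of 8.34 (HSRA-S) and 8.25 (HSRA-C), while the one annotated to all 3 symbols had 7.78 and 7.73. The dim values therefore do not show that Ndufb4 is weakly expressed. A probe set shared by Ndufa10 and Ndufa10l1 was at 9.65 and 9.60, and a dimmer one at 5.80 and 5.85. Ndufa10, Ndufa13, Ndufb1, Ndufs6, Ndufaf8, Ndufa4l2 and the 7 mitochondrially encoded core genes were not analysed here.

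Nduf transcripts sat slightly above the control level in solitary kidneys, and no single gene passed the test. Of the 44 genes, 41 had a higher mean in HSRA-S and 3 a lower one (Ndufs8, Ndufa7 and Ndufaf6), whereas 55.5% of all 13796 genes tested were higher. The median difference was 0.074, or 1.05-fold, against 0.015 over all genes. Among the 38 core, accessory and assembly genes, without Ndufa4 and the copies or pseudogenes, 35 were higher and the median was 0.069. Differences ran from -0.10 for Ndufs8 to 0.35 for Ndufa1. In limma's fit over all genes tested, 0 of 44 reached an adjusted p under 0.05, as did 0% of all genes, and the adjusted p of the 44 ran from 0.331 to 0.976. Before adjustment, 4 of the 44 (Ndufa1, Ndufa2, Ndufab1 and Ndufs6-ps1) had a p under 0.05 with a higher mean in HSRA-S, as did 7.36% of all genes. None of the 44 had one with a lower mean, against 4.69% of all genes. In 4 genes (Ndufa1, Ndufab1, Ndufb6 and Ndufs6-ps1) every HSRA-S array lay above every HSRA-C array, against 4.12% of all genes, and in 0 the reverse held, against 2.17%. These counts were not tested against their background shares. The 95% intervals of limma, not adjusted for the number of genes, lay within 1.5-fold in either direction for all 44 genes, and for 13009 of all 13796. These are whole-organ samples, in which fewer cells of a type and less RNA per cell cannot be told apart.

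**Figure D1:**
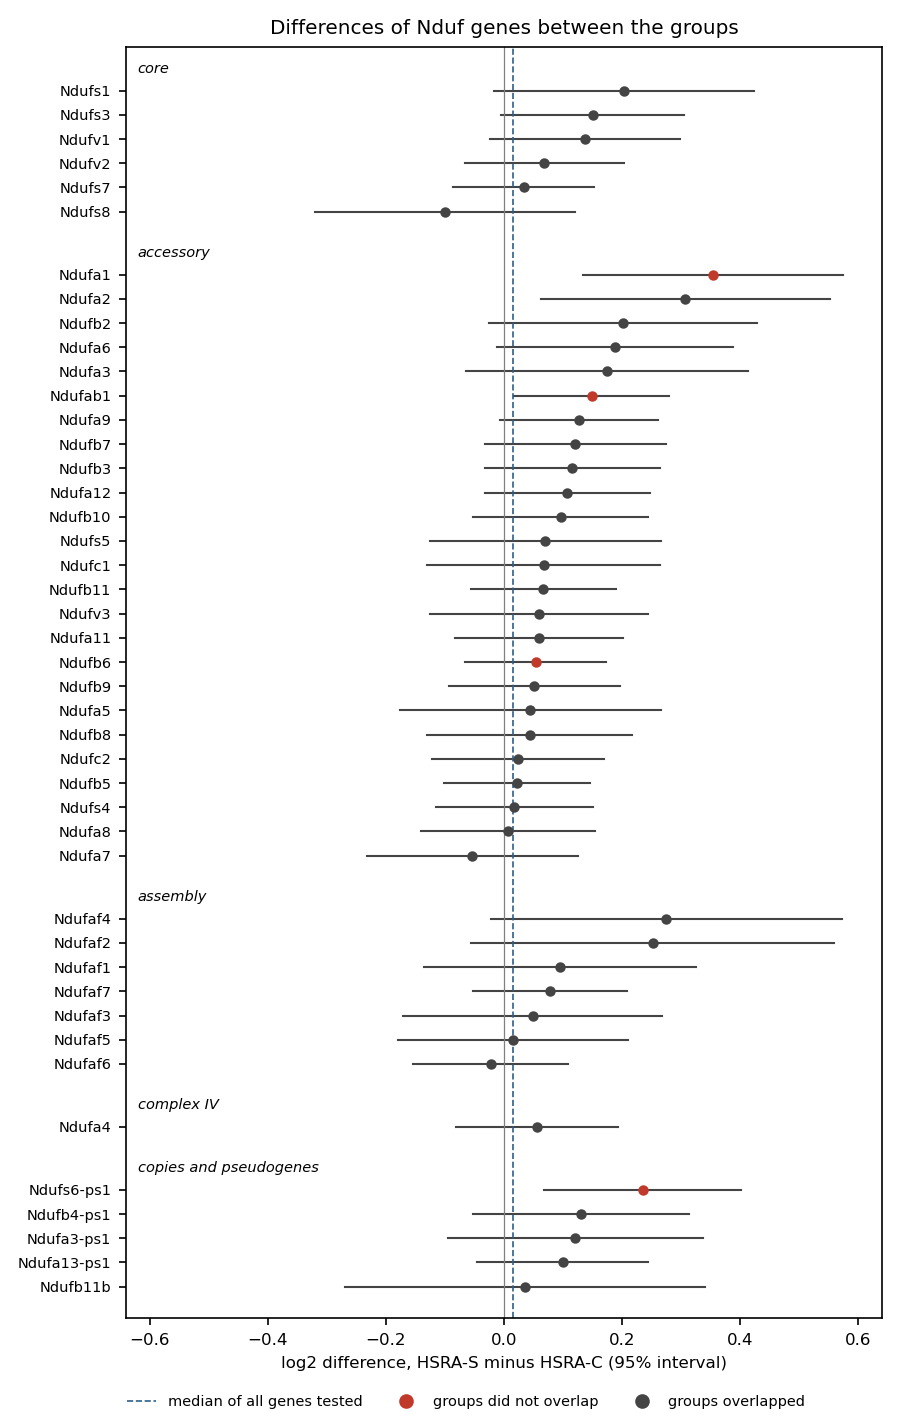
Log2 difference (HSRA-S minus HSRA-C) of the 44 Nduf genes past the filter, by class, with the 95% interval of limma; red points mark genes whose groups did not overlap, and the dashed line is the median of all genes tested. Most points lie between 0 and 0.2, from -0.10 for Ndufs8 to 0.35 for Ndufa1, and most intervals cross 0.

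One control kidney had the lowest level in most of the genes. HSRA-C replicate 4 was the lowest of 8 arrays in 27 of 44 members (61.4%), against 17.6% of all genes tested. The median of the 38 complex I genes, relative to each gene's HSRA-C mean, was 0.06, 0.08, 0.06 and 0.09 in HSRA-S replicates 1 to 4. In HSRA-C replicates 1 to 3 it was 0.03, 0.06 and 0.03, and in replicate 4 it was -0.11. HSRA-C replicate 2 thus lay among the HSRA-S kidneys, and replicate 4 stood below the other 7. Without HSRA-C replicate 4, 37 of 44 genes were higher and the median was 0.056. HSRA-C replicates 3 and 4 were also high in inner medullary transcripts: the urea transporter Slc14a2 was at 8.86 and 8.997 there, against 4.44 to 7.22 in the other 6 kidneys. Without both, 32 of 44 genes (72.7%) were higher, against 55.2% of all genes, and the median was 0.047.

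**Figure D2:**
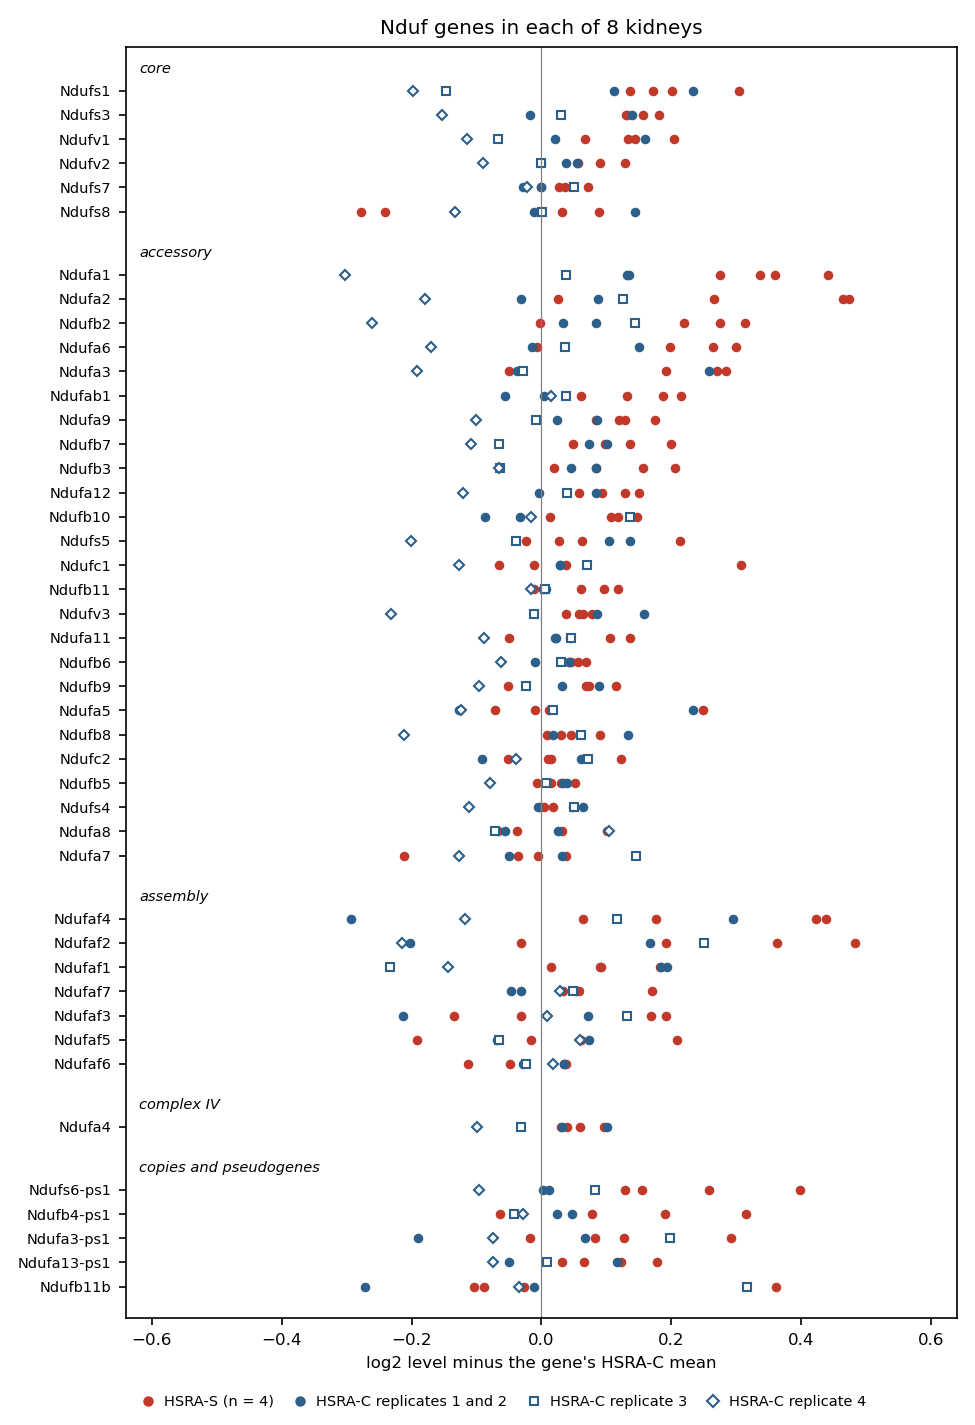
Log2 level of each Nduf gene past the filter in each of the 8 kidneys, minus that gene's HSRA-C mean; red, HSRA-S; blue, HSRA-C, with replicate 3 as squares and replicate 4 as diamonds. The diamonds are the leftmost mark in 27 of the 44 rows.

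The nuclear-encoded core subunits divide into the module that oxidises NADH and the module that reduces ubiquinone. Of the core genes 5 of 6 were higher in HSRA-S, with a median of 0.103, and 0 of 6 were free of overlap between the groups or under 0.05 before adjustment, where 4.12% and 7.36% of all genes were. Ndufs1, the large iron-sulfur subunit of the NADH module, was at 9.18, 9.02, 9.05 and 9.08 in HSRA-S replicates 1 to 4. In HSRA-C it was at 8.99, 9.11, 8.73 and 8.68. Its groups overlapped, with replicates 3 and 4 apart below the other control kidneys, and its difference was 0.20 (SE 0.10, adjusted p = 0.438 by limma). Without HSRA-C replicates 3 and 4 the difference of Ndufs1 was 0.031. Ndufv1, which binds NADH and the flavin, differed by 0.14 (SE 0.07, adjusted p = 0.471), and by 0.047 without those replicates. Its partner Ndufv2 differed by 0.07, and by 0.023 without them.

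Ndufs3, a core subunit of the ubiquinone module, was at 8.36, 8.34, 8.34 and 8.39 in HSRA-S and at 8.19, 8.35, 8.24 and 8.05 in HSRA-C. Only HSRA-C replicate 2 reached the HSRA-S range, and the 4 HSRA-S kidneys lay close together, with an SD of 0.02 (difference 0.15, SE 0.07, adjusted p = 0.424). Without HSRA-C replicates 3 and 4 the difference was 0.089. Ndufs7 and Ndufs8 carry the iron-sulfur clusters next to the ubiquinone site. Ndufs7 differed by 0.03 (SE 0.05). Ndufs8 was the only core gene with a lower mean in HSRA-S. Its levels there were 8.39, 8.43, 8.70 and 8.76, against 8.66, 8.81, 8.67 and 8.54 in HSRA-C. HSRA-S replicates 1 and 2 were the lowest of the 8 and replicates 3 and 4 lay within the control range, for a difference of -0.10 (SE 0.10, adjusted p = 0.711), or -0.17 without HSRA-C replicates 3 and 4.

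Among accessory subunits, 24 of the 25 past the filter were higher in HSRA-S, with a median of 0.067. The mean level over these 25 genes was 8.69 to 8.73 in the 4 HSRA-S kidneys and 8.64, 8.66, 8.64 and 8.49 in HSRA-C replicates 1 to 4. The groups did not overlap in this mean, although HSRA-C replicate 2 came close to the lowest HSRA-S kidney. The core mean did overlap, at 9.37 to 9.41 in HSRA-S and 9.19 to 9.42 in HSRA-C. The assembly mean was 5.84 to 5.96 in HSRA-S and 5.74 to 5.84 in HSRA-C, where the lowest HSRA-S and the highest HSRA-C kidney agreed to the second decimal.

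Ndufa1, a small membrane subunit whose gene is X-linked, had the largest difference of the family. Its level was 7.17, 7.25, 7.34 and 7.23 in HSRA-S and 7.03, 7.03, 6.93 and 6.59 in HSRA-C. The groups did not overlap. The difference was 0.35 (SE 0.10, 95% interval 0.13 to 0.57, 1.28-fold), with an adjusted p of 0.331. HSRA-C replicate 4 was the lowest, and without it the difference was 0.25. It was 0.22 without replicates 3 and 4.

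Ndufa2 is a thioredoxin-fold subunit of the NADH module. Its level was 6.29, 6.53, 6.73 and 6.72 in HSRA-S and 6.23, 6.35, 6.39 and 6.08 in HSRA-C. HSRA-S replicate 1 lay inside the control range and the other 3 above it (difference 0.31, SE 0.11, 1.24-fold, adjusted p = 0.358). The difference was 0.28 without HSRA-C replicates 3 and 4.

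Ndufab1, the mitochondrial acyl carrier protein, also serves mitochondrial fatty acid synthesis. It was at 9.29, 9.44, 9.41 and 9.36 in HSRA-S and 9.23, 9.17, 9.26 and 9.24 in HSRA-C. The groups did not overlap, and here the control kidneys lay close together with replicate 4 among them. The difference was 0.15 (SE 0.06, 1.11-fold, adjusted p = 0.377), and 0.18 without HSRA-C replicates 3 and 4. Ndufb6, a membrane-arm subunit outside the naming rule and singled out after its values were seen, was the other accessory gene without overlap, with a difference of 0.05 (SE 0.05).

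Next in order of p came Ndufa6, an LYR-motif protein that holds the acyl carrier (difference 0.19, SE 0.09), and Ndufa9, at the joint of the matrix and membrane arms (0.13, SE 0.06). Ndufb2, Ndufb7 and Ndufb3 of the membrane arm differed by 0.20, 0.12 and 0.12. Ndufa12 of the NADH module differed by 0.11, and Ndufa3 of the membrane arm by 0.17. In each of these 7 genes the groups overlapped, HSRA-C replicate 4 was the lowest array, and the adjusted p was from 0.432 to 0.534 in limma's fit. Without HSRA-C replicate 4, Ndufb2 differed by 0.11, Ndufa12 by 0.067 and Ndufa3 by 0.11. Without replicates 3 and 4, Ndufa6 differed by 0.12, Ndufa9 by 0.072, Ndufb7 by 0.034, Ndufb3 by 0.051 and Ndufa3 by 0.064. At the other end, Ndufa7 (-0.05, SE 0.08), Ndufa8 (0.007, SE 0.07) and Ndufs4 (0.02, SE 0.06), a subunit attached late in assembly, had the lowest differences of the accessory genes. HSRA-C replicate 4 was the highest array for Ndufa8.

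Some members had several probe sets. The 3 of Ndufs5 differed by 0.07, 0.07 and 0.10, the brightest of them by 0.0028 without HSRA-C replicate 4, and the 2 of Ndufv3 by 0.06 and 0.03. The probe sets of Ndufc2 went different ways: the brighter gave 0.02 and the dimmer -0.14.

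Assembly factors were measured at low to moderate levels. Of these, 6 of 7 had a higher mean in HSRA-S, with a median of 0.078. In 0 of 7 were the groups apart, where 4.12% of all genes were higher without overlap and 2.17% lower. Ndufaf4, which works on the ubiquinone module together with Ndufaf3, was at 7.38, 7.40, 7.13 and 7.02 in HSRA-S. In HSRA-C it was at 7.25, 6.66, 7.07 and 6.84. The groups overlapped broadly, with HSRA-C replicate 2 the lowest array (difference 0.28, SE 0.13, adjusted p = 0.436). Ndufaf2, a relative of Ndufa12 that acts late in assembly, was at 5.22, 5.73, 5.61 and 5.44 in HSRA-S and 5.05, 5.42, 5.50 and 5.04 in HSRA-C (difference 0.25, SE 0.14, adjusted p = 0.486). These 2 differences were 0.27 and 0.27 without HSRA-C replicates 3 and 4.

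Ndufaf1, a factor of the membrane arm, differed by 0.09 (SE 0.10), but by -0.09 without HSRA-C replicates 3 and 4, which were its 2 lowest arrays. Ndufaf7, a protein methyltransferase, differed by 0.08 at the brighter probe set and 0.02 at the other. Ndufaf3, Ndufaf5 and Ndufaf6 differed by 0.05, 0.02 and -0.02, each less than its SE. Among 12 tested of 14 listed assembly factors under other symbols, 9 were higher, with a median of 0.046. The 2 of smallest p were Foxred1 (0.14, SE 0.06) and Aifm1 (0.16, SE 0.08).

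Ndufa4 of complex IV differed by 0.06 (SE 0.06, adjusted p = 0.744) and by -0.0098 without HSRA-C replicates 3 and 4. All 5 copies or pseudogenes past the filter were higher, with a median of 0.121. Ndufs6-ps1 is annotated as a pseudogene, and RefSeq gives Ndufs6, a zinc-binding accessory subunit, as its synonym, so signal of the parent gene and of the copy cannot be told apart here. It was at 8.38, 8.24, 8.14 and 8.11 in HSRA-S and 7.99, 7.995, 8.07 and 7.89 in HSRA-C. The groups did not overlap (difference 0.24, SE 0.07, 1.18-fold, adjusted p = 0.338), and its second probe set gave 0.25. The 3 probe sets of Ndufa13-ps1 gave 0.10, 0.10 and 0.12.

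The class medians were positive under every setting tried, but the order of the classes was not kept. Without HSRA-C replicates 3 and 4, the core median was 0.039 in place of 0.103, the accessory median 0.039 in place of 0.067 and the assembly median 0.117 in place of 0.078. Leaving out HSRA-C replicate 4 alone gave 0.069, 0.042 and 0.051.

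**Figure D3:**
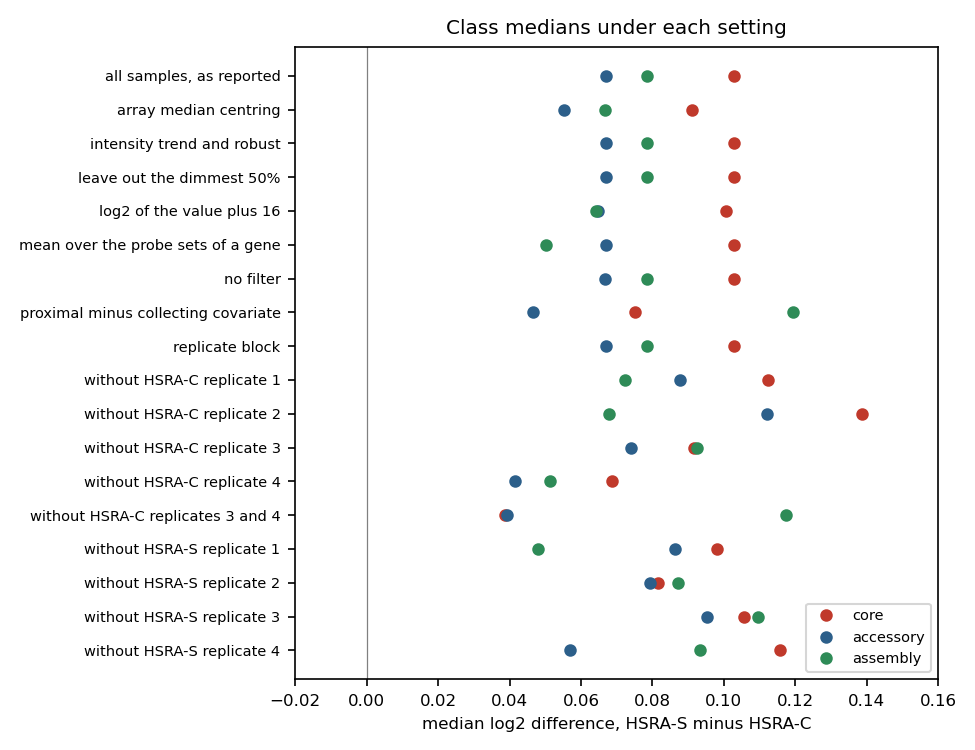
Median log2 difference (HSRA-S minus HSRA-C) of core, accessory and assembly genes with all samples and under each alternative setting, 1 point per class and setting. All points lie above 0; the core median is 0.103 with all samples and 0.039 without HSRA-C replicates 3 and 4.

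The other complexes of the respiratory chain lay on the same side, where 55.5% of all genes were higher and 4.12% were higher without overlap. All 4 complex II genes were higher in HSRA-S, with a median of 0.159. Sdhb, its iron-sulfur subunit, was at 9.65, 9.65, 9.54 and 9.59 in HSRA-S and 9.36, 9.43, 9.35 and 9.30 in HSRA-C. Its groups did not overlap (difference 0.25, SE 0.06, adjusted p = 0.331 by limma), and Sdhd, a membrane anchor, differed by 0.16 (SE 0.08). Of 9 complex III genes 8 were higher, with a median of 0.107; the 2 of smallest p were Uqcrh (0.11) and Uqcrq (0.12). Of 10 complex IV genes 9 were higher, with a median of 0.097, and 4 were free of overlap; Cox5a differed by 0.18 and Cox5b by 0.17. All 12 genes of complex V, the ATP synthase, were higher, with a median of 0.076, led in p by Atp5mc3 (0.16) and Atp5pb (0.17). All 9 tested of 11 listed genes of the outer membrane and import, a list that also holds the matrix enzyme citrate synthase (Cs, 0.08), were higher, with a median of 0.090, among them Tomm70 (0.20), an import receptor, and Vdac2 (0.13), a porin. No gene of these lists had an adjusted p under 0.05.

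**Figure D4:**
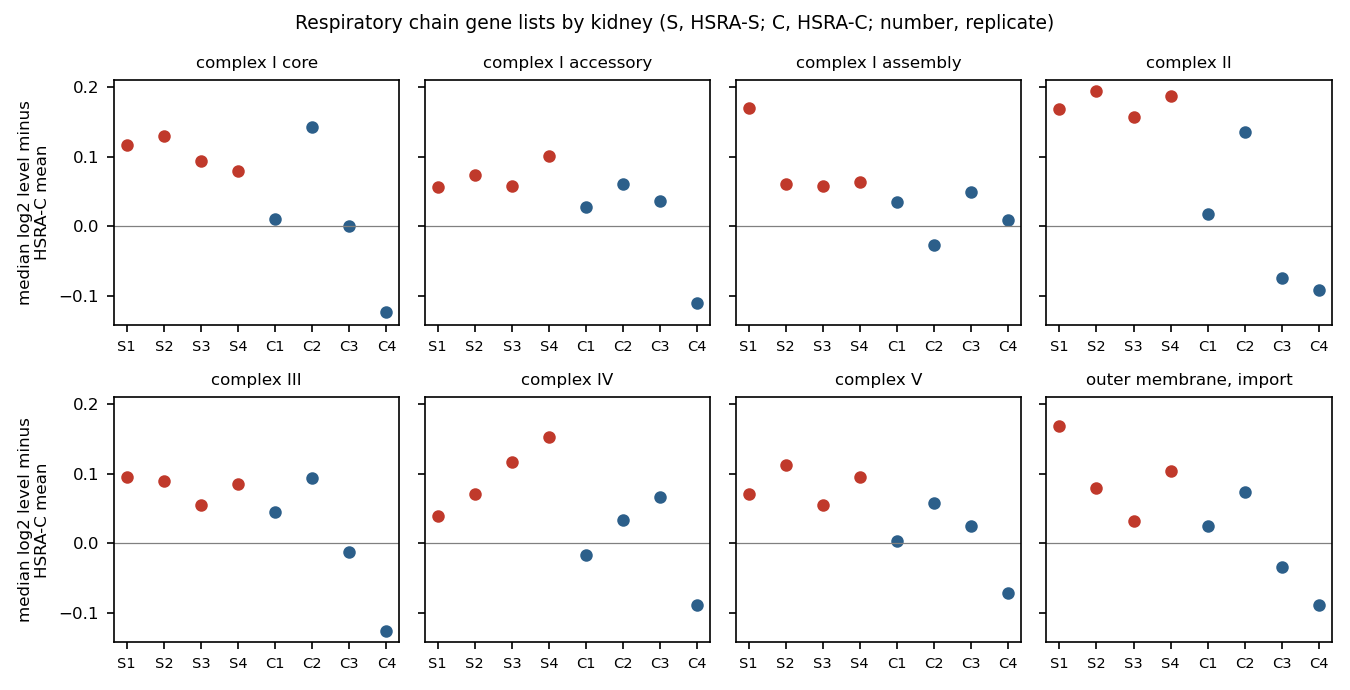
Median over the genes of each list of the log2 level minus the gene's HSRA-C mean, in each kidney (S, HSRA-S, red; C, HSRA-C, blue; the number is the replicate). HSRA-C replicate 4 is the lowest point of every panel except complex I assembly, where HSRA-C replicate 2 is; the outer membrane and import panel also holds Cs.

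Regulators of mitochondrial biogenesis did not lie on 1 side. Of 11 tested of 13 listed, 7 were higher and 4 lower, with a median of 0.047. Yy1, a zinc-finger factor, was at 8.52, 8.48, 8.32 and 8.34 in HSRA-S and 8.13, 8.21, 8.29 and 8.31 in HSRA-C, without overlap (difference 0.18, SE 0.07, adjusted p = 0.375). Tfb2m, a factor of mitochondrial transcription, differed by 0.20 (SE 0.09). Esrrg, an oestrogen-related receptor, was the regulator whose HSRA-S arrays all lay below the HSRA-C arrays (difference -0.11, SE 0.07, adjusted p = 0.527), as 2.17% of all genes did, and its relative Esrra differed by 0.13 (SE 0.07). Ppargc1a, the coactivator, differed by 0.07, Nrf1 by -0.06 and Tfam, which packages mitochondrial DNA, by -0.04, each less than its SE. These 5 regulators were singled out after their values were seen. Among 35 complex I genes with both a promoter entry and a tested value, the median difference was 0.070 in the 9 with NRF1 letters and 0.087 in the 26 without. It was 0.189 in the 7 with ETS letters and 0.068 in the 28 without, and 0.085 in the 6 with YY1 letters and 0.078 in the 29 without. These are descriptions of few genes, and the range with ETS letters, -0.10 to 0.35, was that of the whole class.

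Marker lists of nephron segments and other cell types lay to different sides, and 0 of their genes had an adjusted p under 0.05 by limma. Of 18 proximal tubule markers tested of 20 listed, 14 were higher in HSRA-S (median 0.177), and their summed linear intensity was 28360 to 36276 in HSRA-S and 26645 to 29912 in HSRA-C. All 15 collecting duct and inner medulla markers tested of 16 listed were lower (median -0.278), with sums of 4559 to 5539 and 5406 to 7296. Of 10 thick ascending limb and distal tubule markers tested of 12 listed, 4 were higher (sums 10342 to 12250 and 10909 to 11783). These were Calb1 (0.44), Trpm6 (0.34), Slc12a3 (0.08) and Egf (0.007). Slc12a1, Umod, Bsnd, Kcnj1, Ppp1r1a and Cldn16 were lower, by -0.21 (Bsnd) to -0.05 (Cldn16), so this list pools markers that went different ways. All 12 leukocyte markers tested of 14 listed were higher (2351 to 2631 and 1837 to 2426), all 9 endothelial and stromal markers tested of 12 listed were lower (4250 to 5248 and 5529 to 6311), and 2 of 3 red blood cell markers tested of 5 listed were higher (1387 to 2410 and 1232 to 2672). The lower one, Slc4a1 (-0.29), is also among the collecting duct markers. No marker was at 0. Linear sums follow the brightest genes of a list. Among endothelial and stromal markers this was Dcn, with log2 means of 11.2 in HSRA-S and 11.6 in HSRA-C. The next, Emcn, was at 9.65 and 9.77. Among leukocyte markers it was Cd74 (10.7 and 10.6), with Tyrobp next (7.07 and 6.74). The mean of the proximal markers minus that of the collecting duct markers was 2.39, 2.43, 2.25 and 3.19 in HSRA-S and 2.49, 2.28, 1.72 and 1.66 in HSRA-C, so HSRA-C replicates 3 and 4 were the lowest on this scale too. With this difference as a covariate, 32 of 44 Nduf genes were higher, against 58.6% of all genes, and their median was 0.058. The part of the other marker lists in the complex I differences was not tested.

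**Figure D5:**
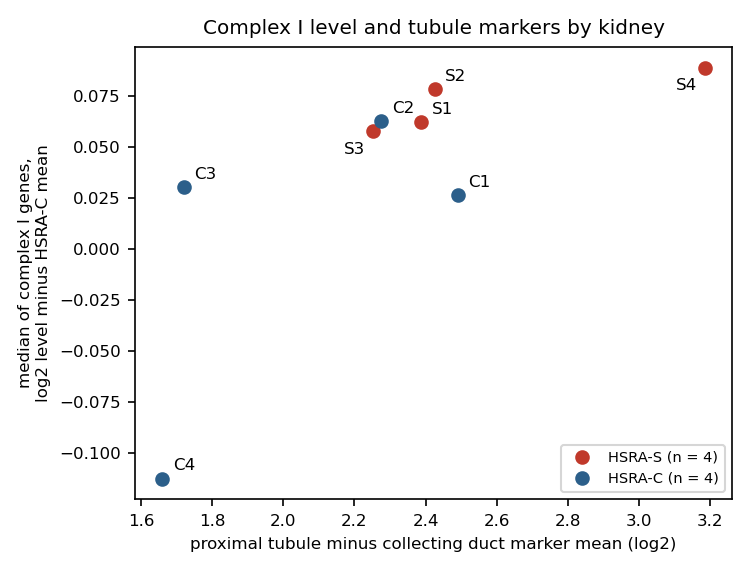
Median log2 level of the 38 complex I genes minus each gene's HSRA-C mean (vertical) against the mean log2 level of proximal tubule markers minus that of collecting duct and inner medulla markers (horizontal), 1 point per kidney (S, HSRA-S, red; C, HSRA-C, blue). HSRA-C replicate 4 is lowest on both axes, at -0.11 and 1.66, and HSRA-S replicate 4 is highest on both, at 0.09 and 3.19.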

How the data were processed

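Total RNA of 8 whole rat kidneys was hybridised to 1 Rat Gene 1.1 ST array each. Values deposited by the authors are RMA intensities per the submitters' processing notes, with no version given. They were linear (2.12 to 9259; the median of an array was 30.8 to 32.3). RMA evens out array-wide differences and compresses dim genes, so their differences are understated. Their log2 was taken here. No coordinates of probe sets are given, because the values come without a named genome build.

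Of 29214 probe sets, 18644 had 1 symbol, 962 several and 9608 none in the platform annotation; 4 Nduf probe sets with several symbols were not used. The brightest probe set stood for a gene. The dimmest 20% of genes (log2 mean below 3.63) were left out, which left 13796. The 2 groups were compared in limma 3.58.1 under R 4.3.3 (lmFit and eBayes without trend, group as the only term, Benjamini-Hochberg over all genes tested, threshold 0.05). Adjusted p-values and intervals come from this fit. It was also run on simulated data in which genes varied independently of each other. That run does not cover an array in which many genes shift together. The number of arrays, 4 a group, limits the precision. Named were all core and Ndufaf genes, the 10 accessory genes of smallest p and the 3 of lowest difference, Ndufa4, members with several probe sets and the 2 genes of smallest p of each other mitochondrial list. Marker lists are given by counts and sums, and the marker genes named beside them were picked after their values were seen. The members, gene lists and settings were chosen with earlier results of these data known. Same-numbered samples of the 2 groups did not deviate together (correlations -0.07, 0.07, 0.13 and -0.11), so the numbers were not taken as pairs.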

Additional observations from a re-analysis of the deposited data

Results flagged for a closer look

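With 4 arrays a group, a kidney was singled out where its gap to the nearest other of its group took more of the group's range than Dixon's critical value at the 95% level; chance alone gives about 1 in 20 such groups, and 2 of 94 groups (2.13%) did so here. The mean level of the 25 accessory subunits was 8.49 in HSRA-C replicate 4, against 8.64 to 8.66 in the other 3 control kidneys. The copy Ndufb11b was at 5.18 in HSRA-S replicate 1, against 4.72 to 4.80 in the other 3 HSRA-S kidneys.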

How the results depend on the processing

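Under the 17 alternatives no Nduf gene reached an adjusted p under 0.05, and the medians of the 44 Nduf genes and of the core, accessory and assembly genes stayed positive. The count of Nduf genes higher at an unadjusted p under 0.05, 4 with all samples, was 7 with an intensity trend and robust variance (7.74% of all genes), 7 with log2 of the value plus 16 (7.85%), 2 without HSRA-C replicates 3 and 4 (2.68%), and 3 to 7 (4.50% to 8.58%) when leaving out each kidney in turn (7 without HSRA-S replicate 4 or HSRA-C replicate 2). With a replicate block it was 7 (7.03% of all genes), although only 1 of 4 numbers correlated best with its own partner. The count without overlap, 4 with all samples, was 4 to 9 when leaving out each kidney (9 without HSRA-S replicate 4, against 8.20% of all genes, and 9 without HSRA-C replicate 2, against 8.26%), where 3 kidneys are compared with 4; it was not recomputed with the trend, the block or the covariate, which leave the values as they are or give none. Over all genes, 669 had an unadjusted p under 0.05 without HSRA-C replicates 3 and 4, 1091 with the tubule marker difference as covariate, and 1010 to 1942 when leaving out each kidney (1010 without HSRA-C replicate 3, 1017 without replicate 4), against 1663 with all samples. The homeobox gene Hoxb5, no member and singled out after its values were seen, was the 1 gene called with the dimmest 50% left out, with the trend and with log2 of the value plus 16 (1 gene each, against 0).

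Of 32 named Nduf genes, 11 changed sign somewhere, none of them called. Without HSRA-C replicates 3 and 4 these were Ndufa4 (-0.0098), Ndufaf1 (-0.094), Ndufs4 (-0.013), Ndufs5 (-0.050) and Ndufv3 (-0.062). With the covariate they were Ndufa7 (0.013), Ndufa8 (-0.025), Ndufaf1 (-0.040), Ndufs4 (-0.017), Ndufs5 (-0.079) and Ndufv3 (-0.027). Array median centring gave -0.0047 for Ndufa8 and the mean over probe sets -0.057 for Ndufc2. Leaving out each kidney gave ranges of -0.024 to 0.042 for Ndufa8, -0.023 to 0.11 for Ndufaf3, -0.049 to 0.085 for Ndufaf5, -0.042 to 0.0082 for Ndufaf6, -0.0088 to 0.050 for Ndufc2, -0.020 to 0.039 for Ndufs4 and -0.017 to 0.11 for Ndufv3. The cause was not tested.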
